A study of Mus musculus with 4 samples.

Results

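Fibroblast growth factor (FGF) receptors and ligands of the early embryo were examined in E14 mouse embryonic stem cells after depletion of Usp22, the deubiquitinating enzyme of the SAGA coactivator complex. The set was fixed by gene symbol as the 4 receptor genes Fgfr1, Fgfr2, Fgfr3 and Fgfr4 and the 6 ligand genes Fgf4, Fgf8, Fgf10, Fgf15, Fgf17 and Fgf18. All 10 were found among the 19938 genes of the array, each with 1 probe set that names that gene alone. The control cells carried a lentiviral shRNA against Luc and the depleted cells one against Usp22, with 2 arrays in each group. Cells of both groups were the same line, grown feeder-free on gelatin in medium that held 20% FBS, LIF, 1 µM PD0325901 (against MEK) and 3 µM CH99021 (against GSK3), so that the MEK step below the FGF receptors was inhibited in the controls as well. The labels do not say whether the arrays of a group came from separate infections or cultures. The p-values therefore reflect the spread among these arrays alone, pooled over all genes, and that spread may be technical.

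FGF ligands are secreted proteins that bind receptor tyrosine kinases together with heparan sulfate, and the receptors pass the signal through FRS2, GRB2 and SOS to RAS, RAF, MEK and ERK. In mouse embryonic stem cells FGF4 is the ligand best known for driving ERK activity, and that activity moves cells out of the naive state. In the blastocyst, FGF4 from the epiblast acts on primitive endoderm through FGFR1 and FGFR2 and on trophectoderm through FGFR2.

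Signal is given as log2 intensity after quantile normalization between the 4 arrays, and a change is the mean of the depleted arrays minus that of the controls. A gene passed the test at a limma adjusted p under 0.05 over all 19938 genes. The 95th percentile of the mean signal of 1194 olfactory and vomeronasal receptor genes, 6.99 on the log2 scale, served as the array background. Usp22 read 9.41 and 9.36 on the controls and 8.23 and 8.29 after depletion. Deposited array medians ran from 109.8 to 127.8 on the linear scale. All 14 stem cell markers lay above the array background, against 8 of 14 trophectoderm, 7 of 14 primitive endoderm and 6 of 13 fibroblast markers. Control replicate 2 stood apart, being the highest or the lowest of the 4 arrays for 80.5% of all genes and for 9 of the 10 FGF genes. Depleted replicate 1 was such an extreme for 61.8% of all genes and for 8 of the FGF genes.

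Of the 10 FGF genes, Fgfr2 rose and none fell. The 1 that rose compares with 2.62% of all genes called higher, and the 0 that fell with 0.105% called lower (limma adjusted p under 0.05). At an unadjusted p under 0.05, Fgfr2 was higher and Fgf18 lower, 1 gene each. Of all 19938 genes, 3078 were higher and 1322 lower at that cutoff (limma). The median log2 fold change of the set was −0.33, beside −0.12 for all genes, and 3 of the 10 stood above 0. Leaving out control replicate 1 moved it to −0.50 and leaving out control replicate 2 to −0.16, where the median of all genes was −0.15 and −0.05. Fgfr2 and Fgf4 were higher on both depleted arrays than on both control arrays, 2 genes of 10, where 27.4% of all genes were higher without overlap. Fgfr1, Fgfr3, Fgf10 and Fgf18 were lower on both, 4 genes of 10, where 33.3% of all genes were lower without overlap. The members' shares lay near those of all genes in both directions. Without control replicate 1, Fgfr3, Fgf8 and Fgf18 also passed as lower, 3 genes of 10, when 21.2% of all genes did. Without control replicate 2, or without either depleted array, 0 of the 10 passed (limma).

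**Figure D1:**
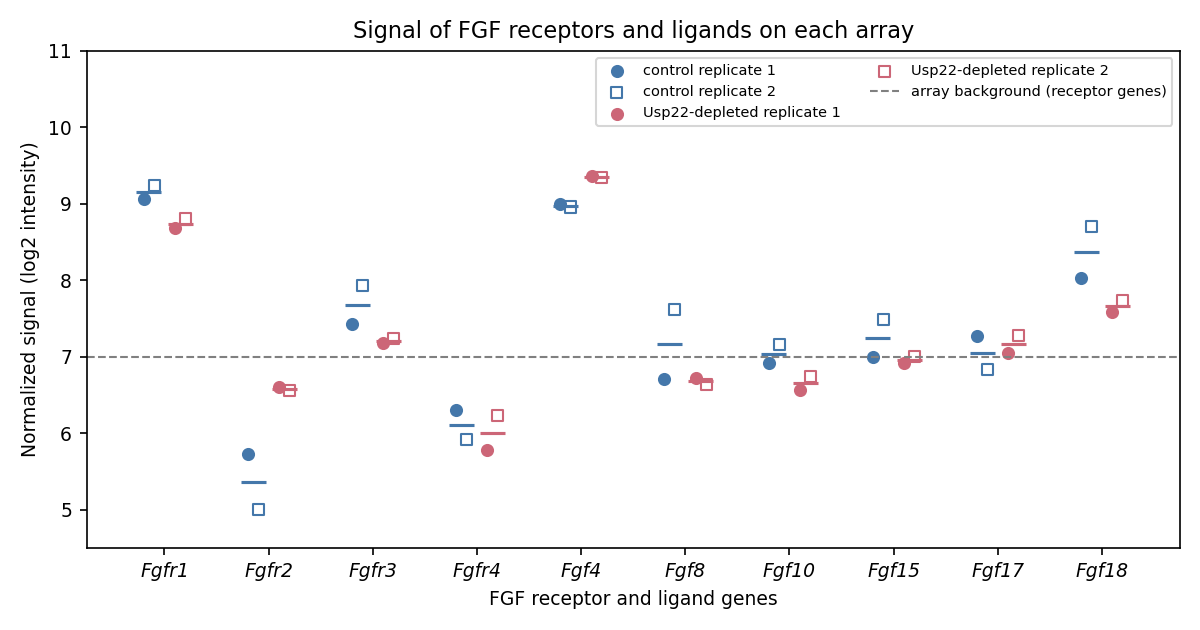
Normalized log2 intensity (vertical axis) of the 10 FGF genes on the 4 arrays, with circles for replicate 1, open squares for replicate 2, blue for control, red for Usp22-depleted, short bars for group means and a dashed line for the array background at 6.99. The Fgfr2 signals of the depleted arrays lie above both controls yet below the dashed line, and Fgf4 shows the tightest replicates.

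The 250 bases before the annotated start are shown for the member that passed the test (Fgfr2), for the ligand best known in stem cells (Fgf4) and for the member with the lowest log2 fold change (Fgf18). They are RefSeq sequence of build GRCm38.p6, at chr7:130266809-130267058 on the minus strand for Fgfr2, chr7:144861136-144861385 on the plus strand for Fgf4 and chr11:33147401-33147650 on the minus strand for Fgf18. The table of starts held 6 of the 10 members, and other starts of these genes were not used here. Capitals mark matches to the GC box GGGCGG on either strand.
Fgfr2: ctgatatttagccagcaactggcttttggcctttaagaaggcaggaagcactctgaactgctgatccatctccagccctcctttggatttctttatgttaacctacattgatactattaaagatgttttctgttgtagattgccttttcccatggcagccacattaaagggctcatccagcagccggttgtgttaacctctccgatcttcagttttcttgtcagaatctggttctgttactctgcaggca
Fgf4: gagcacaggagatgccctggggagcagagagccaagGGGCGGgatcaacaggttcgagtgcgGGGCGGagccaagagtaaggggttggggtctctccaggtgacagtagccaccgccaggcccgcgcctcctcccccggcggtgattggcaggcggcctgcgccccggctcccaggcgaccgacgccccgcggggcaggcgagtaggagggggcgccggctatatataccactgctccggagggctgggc
Fgf18: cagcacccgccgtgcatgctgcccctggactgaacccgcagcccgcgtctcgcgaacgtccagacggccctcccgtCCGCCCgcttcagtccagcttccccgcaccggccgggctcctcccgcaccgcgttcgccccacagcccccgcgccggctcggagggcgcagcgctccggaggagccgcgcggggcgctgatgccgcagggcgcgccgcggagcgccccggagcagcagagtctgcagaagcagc
The Fgfr2 stretch held 44% G and C and 2 CpG dinucleotides, with no GC box. The Fgf4 stretch held 71.2% G and C, 21 CpG and 2 GC boxes, and that of Fgf18 77.2%, 37 CpG and 1 GC box. Over 32851 promoter stretches of the same length the medians were 52.4% and 6 CpG, and 32.7% held a GC box. Searches of both strands for the octamer ATGCAAAT (in 1.6% of all stretches), the Sox motif CATTGT (10.7%), the TCF/LEF motif CTTTGAT (3.21%), the ETS motif CCGGAAG (6.91%) and the TATA box TATAAA (12.4%) found no match in these 3 windows. Only these exact strings were searched, so variants were not counted, such as the tatatata near the end of the Fgf4 stretch. Their absence does not show that a promoter lacks the element. The matches describe these letters and were not related to the array signal by any test.

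Fgfr2 encodes a receptor known for its roles in the primitive endoderm and in trophoblast stem cells. Its signal was 5.72 and 4.99 on the controls and 6.60 and 6.56 after depletion. Both depleted arrays lay above both controls by at least 0.84, a gap wider than the 0.73 between the controls. The group means were 5.36 ± 0.51 and 6.58 ± 0.031 (SD, n = 2 each), a 2.33-fold increase (log2 fold change 1.22 with a standard error of 0.27, limma adjusted p = 0.00343) at percentile 99.87 of all genes. That standard error is shared by all genes and is not the spread of Fgfr2 itself. With an intensity trend and robust variances it was 0.33 for Fgfr2 (limma adjusted p = 0.0164). Both means lay under the array background of 6.99, so the change is one between dim signals. Without control replicate 2 the log2 fold change was 0.86 and the call was lost (limma adjusted p = 0.0744), and it was also lost without depleted replicate 1 or 2 (0.830 and 0.357), where the log2 fold changes were 1.20 and 1.25.

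The other receptors did not pass the test. Fgfr1 encodes the main FGF receptor of the epiblast and of embryonic stem cells. It read 9.07 and 9.23 on the controls and 8.68 and 8.80 on the depleted arrays, above background throughout. The depleted arrays were the lower pair, separated from the controls by 0.27, and the log2 fold change was −0.41 (95% interval −0.94 to 0.11, limma adjusted p = 0.313). With each array centred on its median it was −0.19. Fgfr3, a receptor known from cartilage and bone growth, read 7.43 and 7.93 on the controls and 7.17 and 7.23 on the depleted arrays. Its groups did not overlap, with a log2 fold change of −0.47 (95% interval −0.997 to 0.054, limma adjusted p = 0.264), and it passed at −0.72 when control replicate 1 was left out (limma adjusted p = 0.0113), against −0.22 when control replicate 2 was. Fgfr4, the receptor that with beta-Klotho senses FGF15 in liver, read 6.31 and 5.91 on the controls and 5.78 and 6.23 on the depleted arrays. These groups overlapped and stayed under background, at a log2 fold change of −0.11 (95% interval −0.63 to 0.42), which turned to 0.09 when control replicate 1 was left out and to 0.12 when depleted replicate 1 was. The difference between the change of Fgfr2 and those of the other receptors was not tested.

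Among the ligands, Fgf4 had the closest replicates. Fgf4 read 8.995 and 8.96 on the controls and 9.37 and 9.34 on the depleted arrays, above background on each. The controls differed by 0.039 and the depleted arrays by 0.027, while the groups were 0.34 apart. The log2 fold change was 0.38, or 1.30-fold (95% interval −0.15 to 0.90, limma adjusted p = 0.349), and the fit gives every gene the same standard error of 0.27, which is wider than either difference between replicates of Fgf4. It ranged from 0.36 to 0.40 when 1 array was left out, and was 0.46 on the deposited values and 0.60 with each array centred on its median. With 2 arrays a group, 0.333 is the smallest p that an exact permutation test (two-sided) allows. Fgf4 is a classical target of Oct4 and Sox2, which bind an enhancer downstream of its coding sequence. Sox2 read 9.36 and 9.04 on the controls and 9.90 and 9.68 on the depleted arrays, and Pou5f1 (Oct4) 10.71 and 10.80 against 10.39 and 10.49. Sox2 and Fgf4 were thus higher and Pou5f1 lower without overlap, and the part of either factor in the Fgf4 values was not tested. Sox2 and Pou5f1 were named after their values were seen. Of the 14 stem cell markers, 0 rose and 0 fell, beside 2.62% and 0.105% of all genes (limma). At an unadjusted p under 0.05, 1 was higher and 3 lower, beside 3078 and 1322 of all 19938 genes (limma). Without overlap, 5 were higher and 6 lower, beside 27.4% and 33.3% of all genes. The summed linear signal of the 14 markers was 18490 and 18800 on the controls and 16750 and 17240 on the depleted arrays.

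Fgf8, Fgf17 and Fgf18 belong to 1 ligand subfamily, known from gastrulation, brain and limb patterning and the skeleton. Fgf18 read 8.03 and 8.70 on the controls and 7.58 and 7.74 on the depleted arrays. Its groups did not overlap, with a gap of 0.30 against a difference of 0.67 between the controls. The log2 fold change was −0.71 (95% interval −1.23 to −0.18, limma unadjusted p = 0.00819 and adjusted p = 0.112), the lowest of the set and at percentile 0.607 of all genes. It was −1.04 without control replicate 1 (limma adjusted p = 0.000819) and −0.38 without control replicate 2 (0.376), and it passed with the dimmer 0.5 of the genes left out (limma adjusted p = 0.0415). Fgf8 read 6.71 and 7.62 on the controls and 6.72 and 6.64 on the depleted arrays. Control replicate 2 alone stood high, and control replicate 1 lay between the depleted arrays. Its log2 fold change of −0.48 (95% interval −1.01 to 0.042, limma adjusted p = 0.256) was −0.03 without control replicate 2, and −0.94 with a call (limma adjusted p = 0.00187) when control replicate 1 was left out. Fgf17 read 7.27 and 6.83 on the controls and 7.05 and 7.28 on the depleted arrays. Its groups overlapped, at a log2 fold change of 0.11 (95% interval −0.41 to 0.64), and the sign turned on the deposited values (−0.02) and without control replicate 2 (−0.11). Fgf18 and Fgf8 were brightest on control replicate 2, and Fgf17 was dimmest there.

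The remaining ligands were Fgf10, which signals from mesenchyme to epithelium through FGFR2 in lung and limb, and Fgf15, the mouse counterpart of human FGF19 and an intestinal hormone of bile acid control. Fgf10 read 6.92 and 7.15 on the controls and 6.56 and 6.75 on the depleted arrays. The depleted arrays were lower by at least 0.17, close to the 0.24 and 0.19 between replicates, and the log2 fold change was −0.38 (95% interval −0.91 to 0.14, limma adjusted p = 0.341). Fgf15 read 6.99 and 7.49 on the controls and 6.92 and 6.9999 on the depleted arrays. Its groups overlapped at the background level, and the log2 fold change of −0.28 (95% interval −0.81 to 0.24) was −0.03 without control replicate 2. In at least 1 group's mean, 8 of the 10 FGF genes exceeded the background, the exceptions being Fgfr2 and Fgfr4.

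**Figure D2:**
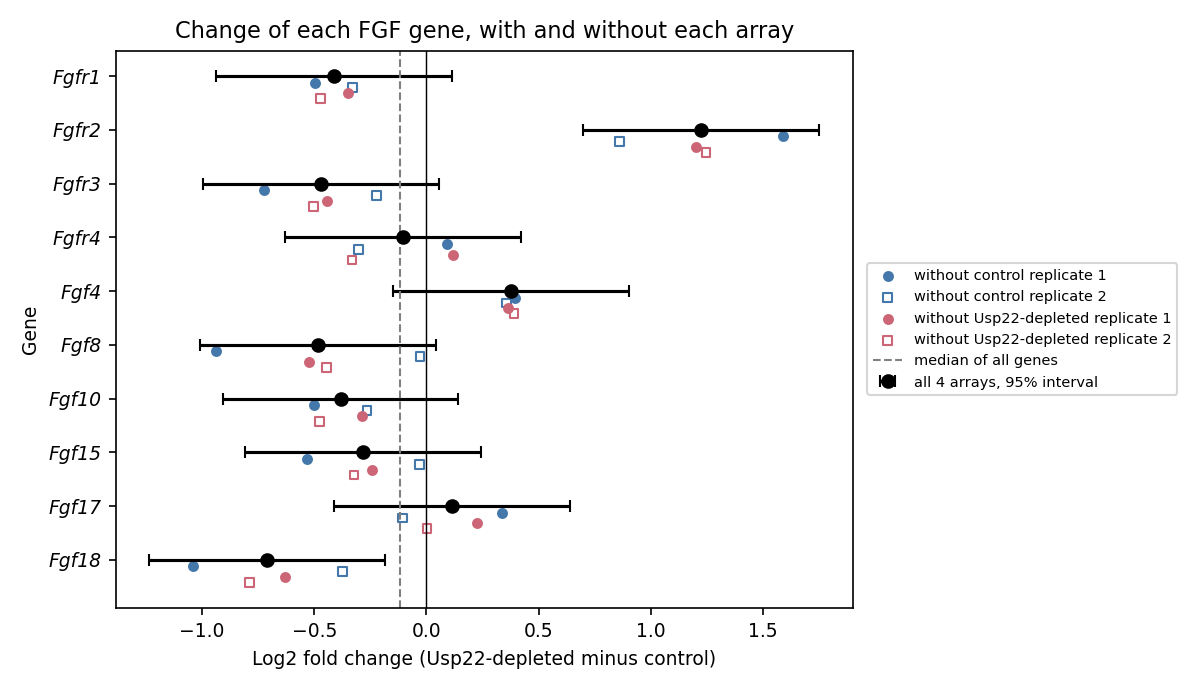
Log2 fold change (horizontal axis, depleted minus control) of each FGF gene, in black with the 95% interval of the limma fit on all 4 arrays, and below it in colour the value without each array in turn. Only the intervals of Fgfr2 (0.70 to 1.75) and Fgf18 (−1.23 to −0.18) leave out 0, and the blue symbols show how far the values move with either control array.

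The scaling between arrays moved the median of all genes and, relative to it, moved members unequally. The median log2 fold change of all genes was −0.12 after quantile normalization, −0.24 on the deposited log2 values and −0.09 with each array centred on its median. Relative to that median, Fgfr2 stood at 1.34 after quantile normalization and at 1.33 on the deposited values, Fgf4 at 0.49 and 0.69, Fgf18 at −0.59 and −0.45, and Fgfr1 at −0.29 and −0.10. Centring each array gives the same relative values as the deposited scale. Fgfr4 stood at 0.01 and −0.06.

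The genes with the profile most like that of Fgfr2 were sought among 11007 genes above background in at least 1 group, by the root mean square difference of signals centred on each gene's mean over the 4 arrays. The 5 closest were Cyp39a1 (0.023 on the log2 scale), which encodes an oxysterol hydroxylase, the heparan sulfate endosulfatase gene Sulf1 (0.048), Lrig2 (0.049), the receptor phosphatase gene Ptprj (0.057) and the Rh blood group gene Rhd (0.059). Sulf1 read 7.36 and 6.65 on the controls and 8.14 and 8.13 on the depleted arrays. The 5 were chosen for this likeness, so what their profiles share with that of Fgfr2 is no finding. The control means of Cyp39a1 (6.63), Lrig2 (5.94), Ptprj (6.36) and Rhd (6.67) lay under the background, and these 4 entered the search through the depleted group.

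**Figure D3:**
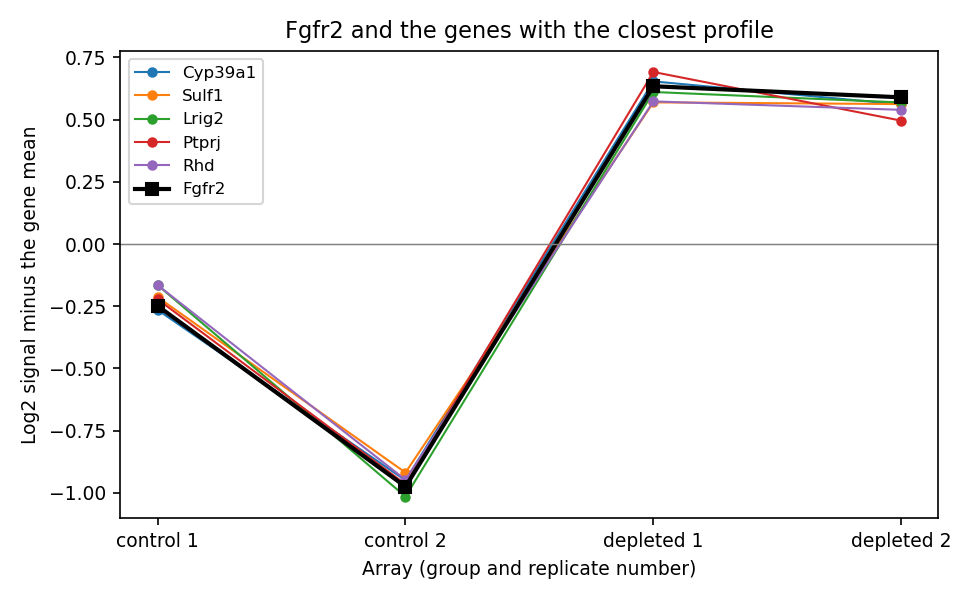
Log2 signal minus the gene's own mean (vertical axis) on each of the 4 arrays for Fgfr2 (black squares) and the 5 genes closest to it; lines join the values of 1 gene and imply no order. The 5 were picked for the smallest distance from the black line, which runs lowest on control replicate 2.

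Fgfr2 is best known in trophectoderm and primitive endoderm, whose markers had medians below that of all genes. Of 14 measured trophectoderm markers, 1 rose and 0 fell, beside 2.62% and 0.105% of all genes (limma adjusted p under 0.05). At an unadjusted p under 0.05, 2 were higher and 2 lower, beside 3078 and 1322 of all 19938 genes (limma). Of the 14, 6 stood above 0, and the list median was −0.35. The marker that rose was Plet1, which read 6.15 and 5.78 on the controls and 7.19 and 6.90 on the depleted arrays (log2 fold change 1.08, limma adjusted p = 0.0117). It did not pass on the deposited values (limma adjusted p = 0.0774) or without control replicate 2 (0.0678), and it was not among the brighter 0.5 of genes. Its part in the Fgfr2 result was not tested. Cdx2, a defining transcription factor of trophectoderm named after its values were seen, read 7.24 and 7.46 on the controls and 6.99 and 6.84 on the depleted arrays. In the other direction, Krt19 stood at 0.64 and Eomes at 0.45, both under background in both group means. Of the 14 markers, 8 stood below 0. The summed linear signal of the list was 2977 and 2902 on the controls and 2498 and 2542 on the depleted arrays. Of 14 primitive endoderm markers, 0 rose and 0 fell (limma, with 2 higher and 2 lower at an unadjusted p under 0.05), with a median of −0.39 and summed signals of 2612 and 2777 against 2624 and 2676. Gata6 read 7.002 and 6.83 on the controls and 6.75 and 7.11 on the depleted arrays. Its group means (6.91 and 6.93) both lay under background. Lama1 stood at 0.66 and Lamb1 at 0.63, against Amn at −0.69 and Hnf4a at −0.54 (limma unadjusted p under 0.05 for each). Of these 14, 4 stood above 0 and 10 below. Of 13 fibroblast markers, 0 rose and 0 fell (limma, 1 higher and 2 lower at an unadjusted p under 0.05), with summed signals of 1652 and 1989 against 1481 and 1622. The arrays measured bulk RNA, in which fewer cells of a type and less RNA per cell cannot be told apart. When control replicate 1 was left out, 24.5% of all genes were called higher and 21.2% lower by limma. In that setting 3 trophectoderm markers were higher and 4 lower, and 1 primitive endoderm marker was higher and 8 lower.

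Beyond the 10, none of 16 other FGF family genes passed the test. Of all genes, 2.62% were called higher and 0.105% lower. The list went by family name, and whether each product is a secreted receptor ligand was not examined. In it 12 of 16 stood below 0, beside 11440 of all 19938 genes. Only 6 of the 16 exceeded the background in at least 1 group's mean. Of these 16, 0 rose and 0 fell (limma), and the median was −0.19 (−0.36 on the deposited values and −0.08 without control replicate 2). At an unadjusted p under 0.05, 0 were higher and 1 lower, beside 3078 and 1322 of all 19938 genes (limma). That lower gene was Fgf21, a metabolic hormone. It read 8.29 and 8.80 on the controls and 7.82 and 8.03 on the depleted arrays (log2 fold change −0.62, limma adjusted p = 0.164). Fgf16 stood at −0.45 and Fgf22 at −0.40, and Fgf6 at 0.38, which was −0.15 without control replicate 2. The control and depleted means of Fgf6 (5.25 and 5.63) lay under the array background. Without overlap, 6 of the 16 were lower and 0 higher, beside 33.3% and 27.4% of all genes. When control replicate 1 was left out, 2 of the 16 were called higher and 5 lower, beside 24.5% and 21.2% of all genes.

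Heparan sulfate proteoglycans hold FGF ligands at the cell surface, and some of their genes rose. Of 16 measured coreceptor and binding protein genes, 2 rose and 0 fell, beside 2.62% and 0.105% of all genes (limma). At an unadjusted p under 0.05, 5 were higher and 2 lower, beside 3078 and 1322 of all 19938 genes (limma). The list median was −0.09. Gpc3, a glypican of the cell surface, read 7.09 and 6.38 on the controls and 8.09 and 7.86 on the depleted arrays. The depleted arrays were above both controls, and the increase of the group means was 2.36-fold (log2 fold change 1.24, limma adjusted p = 0.00281). Sdc1, a syndecan, read 7.12 and 6.37 on the controls and 7.76 and 7.68 on the depleted arrays (log2 fold change 0.97, limma adjusted p = 0.0259). The control means of Gpc3 (6.73) and Sdc1 (6.74) lay under the array background of 6.99, so the size of both increases starts from a dim signal. Sdc3, another syndecan, stood at −0.81 (limma adjusted p = 0.0678), and it passed as lower with the dimmer 0.5 of genes left out (0.0215). The FGF carrier gene Fgfbp1 stood at 0.77 (limma adjusted p = 0.0850), and it also passed with the dimmer genes left out (0.0299). The control mean of Fgfbp1 (6.93) lay under the background too. Without control replicate 2, Gpc3 moved to 0.89 (limma adjusted p = 0.0678) and Sdc1 to 0.60 (0.218), and 0 of the list passed. When control replicate 1 was left out, 6 of the 16 were higher and 5 lower, beside 24.5% and 21.2% of all genes. On the deposited values Sdc1 did not pass (limma adjusted p = 0.0960).

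Of 14 measured genes of heparan sulfate synthesis and editing, 1 rose and 0 fell, beside 2.62% and 0.105% of all genes (limma). At an unadjusted p under 0.05, 3 were higher and 0 lower, beside 3078 and 1322 of all 19938 genes (limma). The list median was 0.11 and turned to −0.07 on the deposited values. The gene that rose was Sulf1, whose product removes sulfate groups from heparan sulfate at the cell surface. Its increase was 2.19-fold (log2 fold change 1.13, limma adjusted p = 0.00767). The epimerase gene Glce stood at 0.61, the sulfotransferase gene Hs2st1 at 0.61 and the chain polymerase gene Ext1 at 0.51 (limma adjusted p = 0.166, 0.171 and 0.240). Without overlap, 6 were higher and 5 lower, beside 27.4% and 33.3% of all genes. Leaving out control replicate 2 moved Sulf1 to 0.78 (limma adjusted p = 0.118) and the list median to −0.03; when control replicate 1 was left out, 5 of the 14 were higher and 3 lower, beside 24.5% and 21.2% of all genes.

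Inside the cell, 17 genes of the relay from receptor to ERK were measured, and 7 more of that list were not analysed here. Of the 17, 2 rose and 0 fell, beside 2.62% and 0.105% of all genes (limma). At an unadjusted p under 0.05, 4 were higher and 2 lower, beside 3078 and 1322 of all 19938 genes (limma). The list median was 0.15. Centring each array gave a median of 0.36, and it turned to −0.11 with the dimmer 0.5 of genes left out and to −0.01 without control replicate 2. Sos1, the exchange factor that loads RAS, read 7.07 and 6.07 on the controls and 7.53 and 7.40 on the depleted arrays (log2 fold change 0.90, limma adjusted p = 0.0401). Control replicate 2 was the low array here, and the log2 fold change was 0.40 without it (limma adjusted p = 0.358). Rps6ka3, which encodes the ERK-activated kinase RSK2, stood at 0.89 (limma adjusted p = 0.0414) from group means of 5.48 and 6.37, both under background, and at 0.58 without control replicate 2 (0.246). The adaptor gene Frs3 stood at −0.69 and the kinase gene Araf at −0.55 (limma adjusted p = 0.119 and 0.209). When limma was run with an intensity trend and robust variances, neither Sos1 nor Rps6ka3 passed (adjusted p = 0.0716 and 0.0872), and neither did on the deposited values (limma adjusted p = 0.132 and 0.134). When control replicate 1 was left out, 6 of the 17 were higher and 2 lower, beside 24.5% and 21.2% of all genes.

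Response and feedback genes of FGF and ERK signalling were split in direction. Of 20 measured, 1 rose and 0 fell, beside 2.62% and 0.105% of all genes (limma). At an unadjusted p under 0.05, 6 were higher and 2 lower, beside 3078 and 1322 of all 19938 genes (limma). The list median was −0.12. That median was −0.06 on the deposited values and 0.08 after centring each array, where the median of all genes was −0.24 and −0.09, and 0.03 without depleted replicate 1. The 1 was the immediate early gene Ier3, which read 7.78 and 7.28 on the controls and 8.46 and 8.51 on the depleted arrays (log2 fold change 0.95, limma adjusted p = 0.0289). It was 0.70 without control replicate 2 (limma adjusted p = 0.154), and on the deposited values its limma adjusted p was 0.0742. Il17rd (Sef), an inhibitor of FGF receptor signalling, stood at 0.64, the immediate early gene Egr1 at −0.62 and the ETS factor gene Etv1 at 0.61 (limma adjusted p = 0.151, 0.161 and 0.171). The control and depleted means of Egr1 (6.66 and 6.04) and Etv1 (6.07 and 6.68) lay under the array background. Without overlap, 8 of the 20 were higher and 8 lower, beside 27.4% and 33.3% of all genes. When control replicate 1 was left out, 8 of the 20 were called higher and 6 lower, beside 24.5% and 21.2% of all genes. None of the genes named in these lists as rising passed without depleted replicate 1 or without depleted replicate 2, where limma called 0 genes higher on the whole array (540 and 1628 at an unadjusted p under 0.05).

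**Figure D4:**
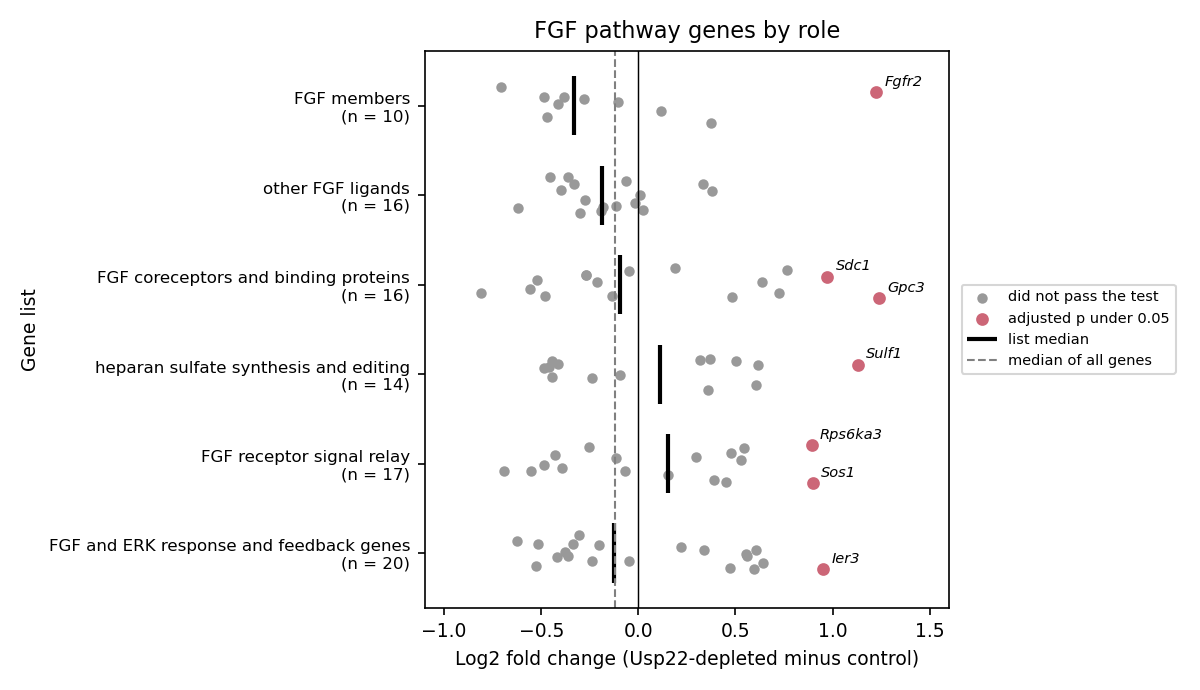
Log2 fold change (horizontal axis, depleted minus control) of every measured gene in the set of 10 and in the 5 lists of the pathway, with red points for a limma adjusted p under 0.05, black bars for list medians and a dashed line for the median of all genes at −0.12. The 7 red points all lie to the right of 0, while the list medians run from −0.33 to 0.15. Of all 19938 genes, 523 were called higher and 21 lower, so most calls on the whole array also lie to the right.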

How the data were processed

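RNA of 2 control and 2 Usp22-depleted samples was measured on one-colour Affymetrix arrays, with biotin-labelled cDNA per the labels' protocols. The authors deposited 1 linear intensity per probe set (28856 on each array); how they summarised, background-corrected and normalized is not given in the sources used here. Log2 of each value was taken and the arrays were quantile-normalized. GEO's platform annotation gave 1 symbol to 21789 probe sets, several to 1621, and 5446 were not named here; the brightest probe set per gene was kept. The test was limma's (version 3.58.1, under R 4.3.3; lmFit then eBayes, 2 groups, two-sided, Benjamini-Hochberg over all genes). The fit had 2 residual and infinite prior degrees of freedom, so all genes shared a standard error of 0.27. The number of arrays limits precision. On simulated arrays, limma picked up 6 of 50 genes when the built-in shift was 1.5-fold. It picked up 22 of 50 when the shift was 2-fold, and all 50 when it was 3-fold. It also called 7 of 19738 genes that had no shift. A gene that did not pass may therefore still differ by 1.5-fold to 2-fold. Whether these rates hold for the deposited arrays, where control replicate 2 stood apart, was not tested. Members and lists were chosen with earlier results of these data known. The text names all members, up to 4 genes a pathway list (those called, otherwise lowest p) and the 5 genes most like the member with the lowest p. Chosen after their values were seen were Sox2, Pou5f1, Cdx2, Krt19, Eomes, Gata6, Lama1, Lamb1, Amn, Hnf4a and Plet1. No set test was run. Alternatives covered scaling, probe-set choice, dim genes, variance model, pairing and leaving out each array. Promoter sequence came from RefSeq.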

Additional observations from a re-analysis of the deposited data

How the results depend on the processing

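Over all genes, 523 were higher and 21 lower by limma. The counts were 75 and 10 on the deposited log2 values, 927 higher with each array centred on its median, 148 lower with the dimmer 0.5 of genes left out and 339 lower with intensity trend and robust settings. Leaving out 1 array gave 0 to 4884 higher and 0 to 4236 lower, with both maxima without control replicate 1. Among the FGF genes, leaving out 1 array gave 0 to 1 higher and 0 to 3 lower, the 3 being Fgfr3, Fgf8 and Fgf18 without control replicate 1. With these dimmer genes left out, 6 members were tested, Fgfr2 not among them, so 0 were higher and 1 lower, Fgf18 at −0.71. Leaving out 1 array moved the log2 fold change of Fgfr2 from 0.86 to 1.59, Fgfr3 from −0.72 to −0.22, Fgfr4 from −0.33 to 0.12, Fgf8 from −0.94 to −0.029, Fgf17 from −0.11 to 0.33, Fgf18 from −1.04 to −0.38, Fgf6 from −0.15 to 0.90 and Usp22 from −1.15 to −1.09. Usp22 lost its call without either depleted array. Fgf17 stood at −0.016 on the deposited log2 values. The cause of these shifts was not tested. With the replicate number as a block, 856 genes were higher and 42 lower, Fgfr2 kept its call (limma adjusted p = 0.00115) no other FGF member passed and Sdc3 passed as lower (0.0410); deviations of same-numbered arrays correlated at 0.105, over 2 pairs that share only a number. Signals under the array background limit what can be said of Fgfr2 and Fgfr4, and of Fgf6, Rps6ka3, Egr1, Etv1, Krt19, Eomes, Gata6 and Hnf4a.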
